A study of Mus musculus with 13 samples.

Results

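The SLC25 family holds the transport proteins of the inner mitochondrial membrane, and its transcripts were measured in adipocytes of mice fed a high-fat diet (HFD) or chow. Its members were taken by symbol, as every listed gene whose name starts with Slc25a except Slc25a20 and Slc25a44, which gave 33 of 11761 listed genes. The rule reads symbols alone.

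SLC25 carriers are built from repeats of paired membrane helices and bind a substrate alternately from the cytosolic and the matrix side. Most exchange a metabolite of the matrix for one of the cytosol, so they set which nucleotides, carboxylates, amino acids and cofactors reach the enzymes inside. In white fat the family is known for moving citrate and malate out of mitochondria for fatty acid synthesis and for exchanging ADP and ATP.

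The tissue was epididymal white fat of Adipoq-NuTRAP mice on the C57BL/6J background. One group had received HFD for 10 weeks (3 libraries) and the other chow with 6.4% fat by weight for 10 weeks (3 libraries). All animals of both groups carry the same reporter, in which the adiponectin promoter restricts the tag to adipocytes; RNA bound to GFP-tagged ribosomes was recovered from whole-fat homogenate, so the values describe ribosome-bound RNA. The labels used here give neither age nor the composition of the HFD, nor whether the replicates came from separate animals, so each p-value reflects variation among these 6 libraries that could be technical. The values are relative to the total of each library. The number of adipocytes and the RNA per adipocyte can therefore neither be read from them nor told apart.

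Values are read counts scaled for library size (CPM), with listed totals of 984422 to 997530 in HFD and 1012163 to 1182123 in chow, and not divided by transcript length, so levels are compared between diets and not between genes. The effective library size, read from the steps between low values, was 32000000 to 39400000 reads in HFD and 7420000 to 32500000 reads in chow, with chow replicate 3 the shallowest. All 33 members had a mean of at least 1 CPM and were tested, and the lowest member value in any library stood for 10 reads. Many markers of other cells were higher in HFD. Of 16 macrophage markers 14 rose and 1, Cd14, fell, with summed levels of 413 to 641 CPM in HFD and 124 to 153 CPM in chow. Of 12 endothelial markers 11 rose (176 to 351 CPM in HFD, 36.3 to 99.8 CPM in chow), and of 11 smooth muscle and pericyte markers 9 rose (1546 to 1944 CPM in HFD, 1068 to 1212 CPM in chow). Much of the smooth muscle and pericyte sums was Mcam, which did not pass (843 to 936 CPM in HFD, 955 to 1075 CPM in chow). Of 12 fibroblast markers 4 rose and 1 fell (2069 to 3871 CPM in HFD, 2430 to 3815 CPM in chow), and of 8 mesothelial markers 3 rose (50.9 to 151 CPM in HFD, 21.2 to 34.3 CPM in chow). Of 33 adipocyte identity genes 4 rose and 12 fell (63980 to 72550 CPM in HFD, 73210 to 120700 CPM in chow). Among the tested genes of these lists, Krt8, a mesothelial marker, stood at the lowest value of the table in chow replicate 3, and the others were above it in every library. The part of these cells in the results below was not tested.

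The carrier family as a whole did not move in a single direction. With limma and Benjamini-Hochberg adjustment over all tested genes, 13 of 33 members differed between the diets (39.4%), beside 35.1% of the 11643 tested genes. Of these, 4 rose (12.1%, beside 19.1% of all tested genes) and 9 fell (27.3%, beside 16.0%). Slc25a37, Slc25a10 and Slc25a45 were among those that rose, and those that fell were Slc25a29, Slc25a23, Slc25a22, Slc25a16, Slc25a26, Slc25a15, Slc25a3, Slc25a4 and Slc25a11. At an adjusted p under 0.01, 2 rose and 4 fell, beside 19.4% of all tested genes called in either direction. The libraries of the diets did not overlap for 18 members (54.5%), beside 50.2% of all tested genes. The summed level of all 33 members was 2880, 3021 and 2953 CPM in HFD, against 2957, 3008 and 3429 CPM in chow, so the sums overlapped.

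How many carriers count as lower depends on how the libraries are scaled. With equal library totals, under which the median of all genes stood at 0.10 on the log2 scale, 6 members were higher and 5 lower. These were 18.2% and 15.2% of the members, beside 21.6% and 11.45% of all tested genes. Over all genes 65.3% of the calls were then higher, beside 54.4% as deposited. With the median adipocyte identity gene set equal, under which the median of all genes stood at 0.38, 9 were higher and 1, Slc25a23, was lower. These were 27.3% and 3.03% of the members, beside 31.3% and 3.67% of all tested genes (89.5% of all calls higher). The median log2 fold change of the members was -0.10 as deposited and 0.29 under that last scaling. Set against the median of all genes it was -0.094 as deposited, -0.093 with equal totals, -0.096 with quantile normalization and -0.089 with the identity gene set equal. Without HFD replicate 1, HFD replicate 3 or chow replicate 3, 5 members were lower in each case (15.2%, beside 12.6%, 9.98% and 14.9% of all tested genes, in that order). The calls of Slc25a10, Slc25a37 and Slc25a23 were kept in each of the 16 alternative fits at an adjusted p of 0.05, and those of 3 more, Slc25a22, Slc25a16 and Slc25a29, were lost with the identity gene scaling alone.

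**Figure D1:**
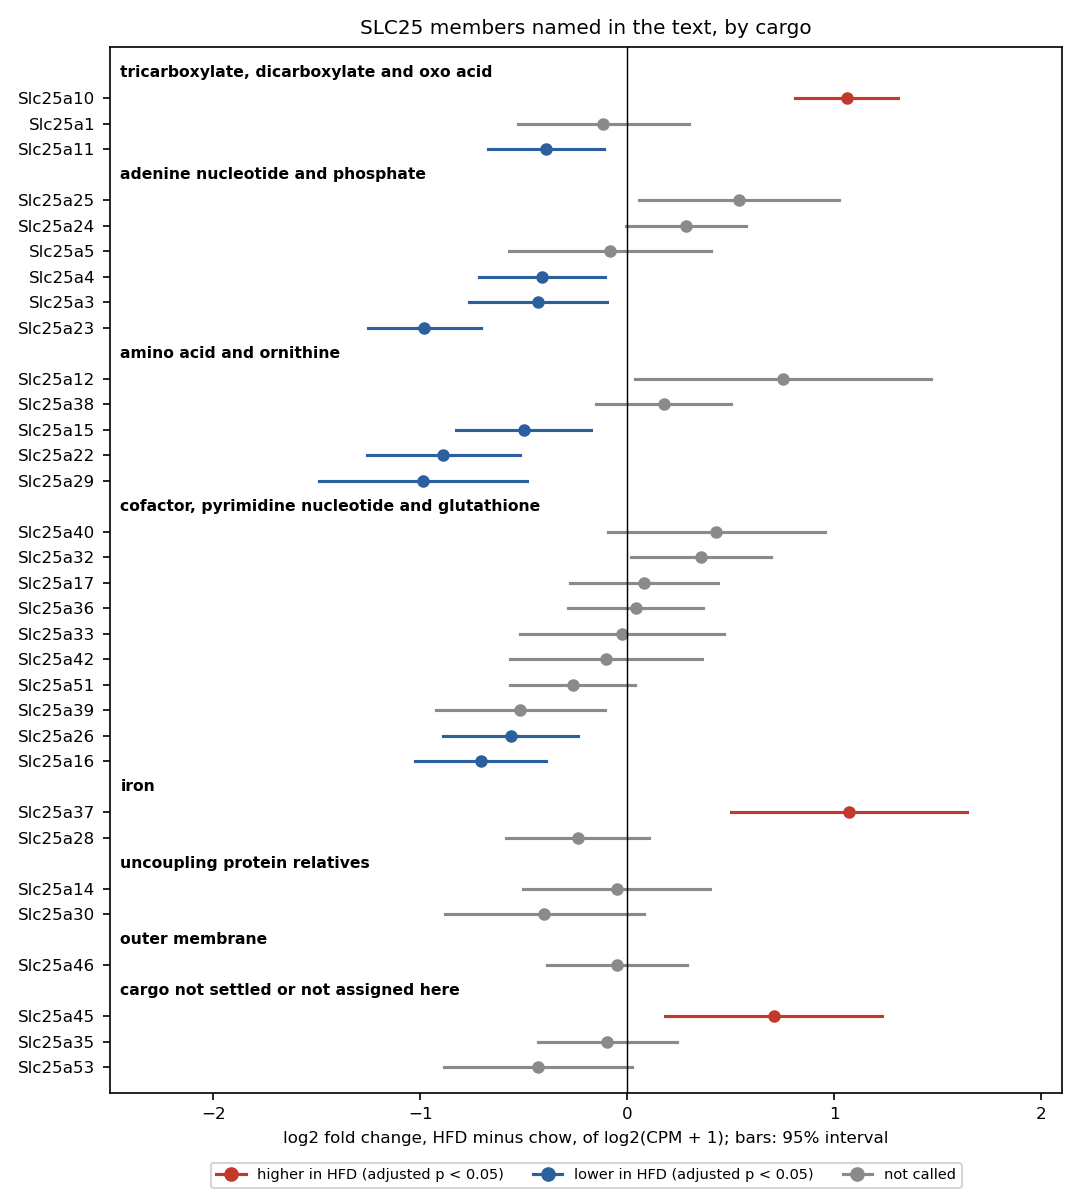
Log2 fold change (HFD minus chow, on log2(CPM + 1)) of the SLC25 members named in the text, grouped by cargo, with 95% intervals from limma; red and blue mark members that passed the adjusted threshold. Members of most cargo groups lie on both sides of 0, but the uncoupling protein relatives and the outer membrane member lie below it. Over all groups the values run from Slc25a37 at 1.07 to Slc25a29 at -0.99.

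Of 3 carriers of carboxylates, 1 rose, 1 fell and 1 did not pass. Slc25a10, the dicarboxylate carrier, which exchanges malate and succinate for phosphate and is abundant in white fat, stood at 419, 413 and 388 CPM in HFD, against 198, 194 and 191 CPM in chow. Every HFD library was far above every chow library, and the spread within a diet was small. The mean was 407 ± 16.3 CPM in HFD and 195 ± 3.40 CPM in chow (SD, n = 3 each), a log2 fold change of 1.06 (SE 0.11, limma adjusted p 0.00014). It ranged from 1.02 to 1.47 over the alternatives.

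Slc25a11, the oxoglutarate carrier of the malate-aspartate shuttle, stood at 75.6, 79.3 and 71.5 CPM in HFD, against 95.01, 93.1 and 111 CPM in chow. It fell by 0.40 on the log2 scale (SE 0.12, limma adjusted p 0.0345), but this call was lost when any 1 of the 6 libraries was left out (adjusted p 0.0508 to 0.136) and with equal totals (0.0872), and under the identity gene scaling the value was 0.0099. Slc25a11 overlaps Rnf167, which was listed at 43.5 ± 1.99 CPM in HFD and 48.8 ± 4.77 CPM in chow. Whether their exons overlap was not checked, and the library kit does not mark strand.

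Slc25a1, the citrate carrier that supplies the cytosol with carbon for fatty acids, stood at 240.5, 199.5 and 298 CPM in HFD, against 236, 237 and 326 CPM in chow. The diets overlapped and the difference did not pass (log2 fold change -0.12, 95% interval -0.53 to 0.30, limma adjusted p 0.653). The carriers of malate and of citrate thus differed in their call, while the difference between them was not tested.

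In the upstream sequence of these genes, 4 short motifs were searched on both strands, in the 250 bases before each RefSeq start on GRCm38.p6. The motifs were the nuclear receptor core AAGGTCA, the E-box CACGTG, the ATF4-type TGATGCA and the NRF1-type core TGCGCAT. In the member windows matches of different motifs did not overlap, since the E-box alone was found there. Windows were at hand for 26 members (35 windows, since some genes have several starts). The E-box was found in 6 of the 35 windows (17.1%), those of Slc25a1, Slc25a14, Slc25a15, Slc25a33 and Slc25a36, beside 6.02% of 32851 windows of all genes. Slc25a14 has overlapping windows that hold the same E-box, so the 6 windows hold 5 distinct sites, and windows of all genes that overlap count a site more than once in the same way. The other motifs were found in 0 of the 35 member windows, beside 4.08%, 2.68% and 2.40% of all windows for the nuclear receptor core, the ATF4-type and the NRF1-type motif, in that order. The member windows had a median GC content of 58.0%, against 52.4% over all windows. A match describes letters and not a bound site.

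The window of Slc25a10, the member with the strongest rise among those with a window, is shown with that of Slc25a23, whose fall was called in every alternative, and that of Slc25a15, the called member with an E-box. Of the windows of Slc25a23 and Slc25a15, which have 2 each, the one given is that of Slc25a15 with the E-box and that of Slc25a23 nearest the gene body. Each is written from far to near the start, on the gene's strand, and capitals mark the E-box.
Slc25a10 (chr11:120491587-120491836, plus strand): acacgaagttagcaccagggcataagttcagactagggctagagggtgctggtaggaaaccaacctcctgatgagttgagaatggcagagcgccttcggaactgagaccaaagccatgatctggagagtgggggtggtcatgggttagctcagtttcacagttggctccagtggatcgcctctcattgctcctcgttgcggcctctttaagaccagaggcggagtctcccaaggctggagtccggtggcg
Slc25a23 (chr17:57059843-57060092, minus strand): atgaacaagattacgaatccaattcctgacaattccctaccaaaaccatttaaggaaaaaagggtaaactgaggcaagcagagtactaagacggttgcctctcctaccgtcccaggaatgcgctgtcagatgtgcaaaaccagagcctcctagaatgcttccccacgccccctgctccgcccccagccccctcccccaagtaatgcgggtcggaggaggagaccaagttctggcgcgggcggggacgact
Slc25a15 (chr8:22398278-22398527, minus strand): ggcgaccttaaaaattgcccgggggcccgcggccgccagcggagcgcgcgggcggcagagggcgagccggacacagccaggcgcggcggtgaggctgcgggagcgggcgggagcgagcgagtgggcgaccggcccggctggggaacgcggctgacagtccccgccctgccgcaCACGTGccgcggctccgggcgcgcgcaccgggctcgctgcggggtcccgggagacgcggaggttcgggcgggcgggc
The window of Slc25a15 had a GC content of 80.4%, against 56.0% in that of Slc25a10 and 55.2% in that of Slc25a23. Its E-box starts 77 bases before the start site.

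Among carriers of adenine nucleotides and phosphate, 3 of 6 fell, beside 16.0% of all tested genes, and the others did not pass. Slc25a23, a calcium-regulated carrier that exchanges ATP-magnesium for phosphate, stood at 55.0, 64.9 and 55.7 CPM in HFD, against 116, 119 and 114 CPM in chow. The diets were well apart, and Slc25a23 differed by -0.98 ± 0.12 (log2 fold change ± SE, adjusted p 0.00034 from limma). This fall was called in each alternative, from -1.06 to -0.58, with an adjusted p of at most 0.0381.

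Its close relatives did not pass as deposited, but did under some alternatives. Slc25a24, of the same calcium-regulated group, stood at 44.3, 47.2 and 53.5 CPM in HFD, against 37.8, 39.7 and 40.8 CPM in chow, without overlap and without a call (log2 fold change 0.28, limma adjusted p 0.119). It was called higher with the identity gene scaling (0.68, adjusted p 0.0222) and with array weights (0.36, adjusted p 0.0223). Slc25a25, the other relative, stood at 159, 186 and 134 CPM in HFD, against 150.1, 82.1 and 104 CPM in chow. Chow replicate 1 lay within the HFD range, and without it the difference passed (log2 fold change 0.77, adjusted p 0.01, against 0.54 and 0.0787 with all libraries). It also passed with equal totals (adjusted p 0.0497), the identity gene scaling (0.0089) and a replicate block (0.0474).

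Slc25a4 encodes the adenine nucleotide translocase typical of heart and muscle, which exports ATP for ADP. It stood at 256, 292 and 237 CPM in HFD, against 319.6, 336 and 391 CPM in chow, without overlap. Slc25a4 differed by -0.41 ± 0.14 (log2 fold change ± SE, adjusted p 0.0404 from limma), and the call was lost without HFD replicate 1 (0.102), HFD replicate 3 (0.163), chow replicate 2 (0.0716) or chow replicate 3 (0.0729). Its relative Slc25a5, which is expressed in most tissues, stood at 93.7, 137 and 113 CPM in HFD, against 122, 159.8 and 88.7 CPM in chow, with the diets overlapping (log2 fold change -0.08, 95% interval -0.57 to 0.41). Values of Slc25a5 are uncertain, since RefSeq records 2 pseudogenes of it that could share its reads.

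Slc25a3, the phosphate carrier that feeds ATP synthase, stood at 271, 265 and 269 CPM in HFD, against 326, 324 and 449 CPM in chow. Chow replicate 3 was far above the other chow libraries. Slc25a3 differed by -0.43 ± 0.15 (log2 fold change ± SE, adjusted p 0.0481 from limma). This call was lost without HFD replicate 1, 2 or 3 (0.103, 0.119 and 0.124) or chow replicate 3 (0.0572, with a log2 fold change of -0.28), and on the deposited log2 values without a pseudocount (0.0501). For Slc25a4 and Slc25a3 the calls were also lost with equal totals (adjusted p 0.0872 and 0.0631), with quantile normalization (0.0869 and 0.0574) and with the identity gene scaling, under which their values were -0.0033 and -0.023.

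**Figure D2:**
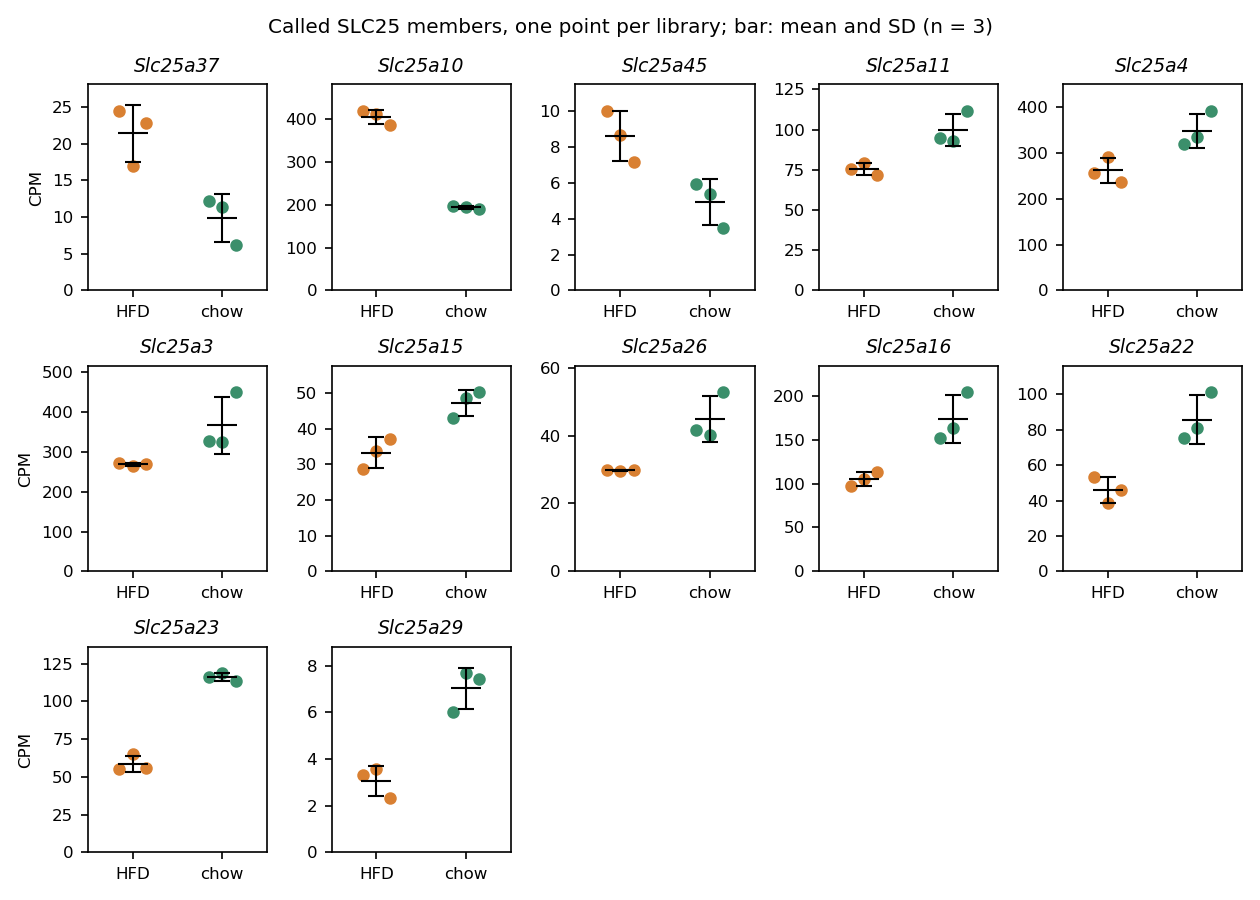
CPM of the SLC25 members named in the text that differed between the diets, a point per library, with the mean and SD (n = 3 per diet), from the strongest rise to the strongest fall. In each panel the HFD points lie entirely above or entirely below the chow points; Slc25a10 averages 407 CPM in HFD and 195 CPM in chow.

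Among carriers of amino acids, 3 of 5 fell, beside 16.0% of all tested genes. Slc25a22, which brings glutamate into the matrix, stood at 53.1, 38.6 and 45.9 CPM in HFD, against 75.1, 81.0 and 101 CPM in chow. Slc25a22 differed by -0.89 ± 0.16 (log2 fold change ± SE, adjusted p 0.00305 from limma), and it was -0.49 (adjusted p 0.0637) with the identity gene scaling. Slc25a29, a carrier of arginine and lysine, stood at 3.32, 3.56 and 2.35 CPM in HFD, against 6.02, 7.67 and 7.41 CPM in chow. It is a low gene, with 55 reads in its shallowest library, and its log2 fold change of -0.99 had an SE of 0.22 (adjusted p 0.00846 from limma); it was -1.21 on the deposited log2 values without a pseudocount.

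Slc25a15, the ornithine carrier of the urea cycle, stood at 28.6, 33.8 and 37.3 CPM in HFD, against 43.1, 48.5 and 50.2 CPM in chow. Its log2 fold change of -0.50 had an SE of 0.145 (adjusted p 0.0245 from limma), and the call was lost without HFD replicate 1 (0.0819), HFD replicate 2 (0.0598), chow replicate 2 (0.0676) or chow replicate 3 (0.0509), and with equal totals (0.0716). The glycine carrier gene Slc25a38, needed for heme synthesis, stood at 26.9 ± 2.37 CPM in HFD and 23.7 ± 2.13 CPM in chow (SD, n = 3 each) and did not pass (limma adjusted p 0.376). Slc25a38 was called higher with the identity gene scaling alone (log2 fold change 0.57, limma adjusted p 0.0424).

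Slc25a12, an aspartate-glutamate carrier of the malate-aspartate shuttle, stood at 5.13, 6.59 and 4.66 CPM in HFD, against 4.23, 3.48 and 1.36 CPM in chow. The value in chow replicate 3 rests on 10 reads. The difference did not pass as deposited (log2 fold change 0.75, limma adjusted p 0.0957) and passed without chow replicate 1 (0.98, adjusted p 0.0462). It also passed with the identity gene scaling (1.05, adjusted p 0.0405) and a replicate block (adjusted p 0.0448). In 12 of the 15 alternative fits that tested Slc25a12 it did not pass. Slc25a12 was thus above its chow values in each HFD library, while Slc25a11 of the same shuttle was below.

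Among the carriers of cofactors, pyrimidine nucleotides and glutathione described here, Slc25a16 and Slc25a26 fell. Slc25a16, a carrier linked to coenzyme A whose cargo is not settled, stood at 97.0, 105 and 113 CPM in HFD, against 152, 163 and 204 CPM in chow. Slc25a16 differed by -0.71 ± 0.14 (log2 fold change ± SE, adjusted p 0.00456 from limma), and it was -0.30 (adjusted p 0.19) with the identity gene scaling. Its relative Slc25a42, the coenzyme A carrier, stood at 16.9 ± 2.97 CPM in HFD and 18.4 ± 4.02 CPM in chow (SD, n = 3 each) and did not pass (limma adjusted p 0.727).

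Slc25a26 brings S-adenosylmethionine, the methyl donor, into mitochondria. It stood at 29.9, 29.7 and 29.9 CPM in HFD, against 41.6, 40.2 and 52.7 CPM in chow, and the HFD libraries were nearly equal. Slc25a26 differed by -0.56 ± 0.14 (log2 fold change ± SE, adjusted p 0.0143 from limma), and the call was lost without HFD replicate 3 (0.0528) and with the identity gene scaling (-0.17, adjusted p 0.493). Slc25a26 overlaps Lrig1, which was lower in HFD too (116 ± 4.59 CPM in HFD and 212 ± 53.4 CPM in chow, limma adjusted p 0.00507). Whether reads of Lrig1 were counted for Slc25a26 was not tested.

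The glutathione carriers Slc25a39 and Slc25a40 had fold changes of opposite sign, and neither passed. Slc25a39 stood at 147, 141 and 142 CPM in HFD, against 179.8, 172 and 280.1 CPM in chow. It had a log2 fold change of -0.52 and just missed the threshold (limma adjusted p 0.0511), passing without chow replicate 1 (0.039) or chow replicate 2 (0.0329). Slc25a39 also passed with array weights (0.0339) and a replicate block (0.0256), and did not pass in 12 of the 16 alternative fits. Slc25a40 stood at 17.9, 17.8 and 17.6 CPM in HFD, against 17.03, 14.7 and 8.52 CPM in chow, without overlap (log2 fold change 0.43, limma adjusted p 0.181). The chow values of both genes were spread by chow replicate 3, in which Slc25a39 was highest and Slc25a40 lowest.

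Slc25a51, which imports NAD, stood at 151, 167 and 190 CPM in HFD, against 186, 199.5 and 224 CPM in chow, with overlap (log2 fold change -0.27, limma adjusted p 0.152). Slc25a17, a carrier of coenzyme A and other cofactors in peroxisomes, stood at 65.8, 82.1 and 77.7 CPM in HFD, against 59.3, 85.0 and 70.5 CPM in chow. Slc25a36, a pyrimidine nucleotide carrier, stood at 82.7, 100.4 and 103 CPM in HFD, against 99.7, 99.7 and 79.3 CPM in chow. For neither did the diets separate (log2 fold changes 0.08 and 0.04, limma adjusted p 0.733 and 0.857). Slc25a33, the other pyrimidine nucleotide carrier, did not separate either (-0.03, adjusted p 0.939). Slc25a32, the folate and FAD carrier, stood at 35.3, 38.3 and 34.1 CPM in HFD, against 28.1, 23.8 and 32.2 CPM in chow. It was above chow in each HFD library without passing (log2 fold change 0.36, limma adjusted p 0.0969), and it passed without chow replicate 3 (0.46, adjusted p 0.0361). It also passed with equal totals (adjusted p 0.0332), the identity gene scaling (0.0084) and array weights (0.0164). In 12 of the 16 alternative fits it did not pass.

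Of the 2 iron carriers, 1 rose and the other did not pass. Slc25a37, mitoferrin-1, which delivers iron for heme and iron-sulfur clusters and is best known from red cell precursors, stood at 24.4, 17.03 and 22.8 CPM in HFD, against 12.2, 11.4 and 6.19 CPM in chow. All HFD libraries were higher, with a log2 fold change of 1.07 (SE 0.25, limma adjusted p 0.0104) that ranged from 0.79 to 1.44 and was called in each alternative fit at 0.05, but not at 0.01. Of the 16 macrophage markers 14 rose in the same libraries, and their part in this rise was not tested. Slc25a28, mitoferrin-2, which serves other cells, stood at 32.0, 35.3 and 29.7 CPM in HFD, against 42.8, 40.8 and 32.0 CPM in chow (log2 fold change -0.24, limma adjusted p 0.254). Slc25a28 was called lower with array weights alone (-0.37, limma adjusted p 0.0283).

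Of the remaining members, 1 passed. Slc25a45, whose cargo is not assigned here, stood at 9.99, 8.69 and 7.16 CPM in HFD, against 5.94, 5.39 and 3.51 CPM in chow, with 26 reads in its shallowest library. Its log2 fold change of 0.71 had an SE of 0.23 (adjusted p 0.0412 from limma). The call was lost without HFD replicate 1 (0.124), HFD replicate 2 (0.104), HFD replicate 3 (0.0586), chow replicate 2 (0.0632) or chow replicate 3 (0.0855), with quantile normalization (0.167), with voom weights on reads (0.0721) and with array weights (0.06). Slc25a46, an outer membrane protein of mitochondrial shape, stood at 127, 157 and 147 CPM in HFD, against 129, 142 and 177 CPM in chow, overlapping (log2 fold change -0.05, limma adjusted p 0.823). Of the relatives of the uncoupling proteins, Slc25a30 had a log2 fold change of -0.40 (limma adjusted p 0.173) and Slc25a14 of -0.05 (0.863). Slc25a53 and Slc25a35, with no cargo assigned here, had -0.43 (0.124) and -0.10 (0.641). Slc25a53 was called lower with quantile normalization alone (-0.64, limma adjusted p 0.0434).

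Members with close relatives were also compared within a library, as the difference of their log2 CPM. Such a difference does not change when a library is multiplied by a factor. The 9 pairs were chosen after the values were seen, so they carry no test. Slc25a10 minus Slc25a11 was 2.47, 2.38 and 2.44 in HFD, against 1.06, 1.06 and 0.78 in chow, a difference of 1.46 between diets. Slc25a24 minus Slc25a23 was -0.31, -0.46 and -0.06 in HFD, against -1.62, -1.58 and -1.48 in chow. The balance within the calcium-regulated group therefore moved by 1.28 toward Slc25a24, and that of Slc25a25 against Slc25a23 by 1.54.

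Slc25a37 minus Slc25a28 was -0.39, -1.05 and -0.38 in HFD, against -1.81, -1.84 and -2.37 in chow, without overlap. Slc25a39 minus Slc25a40 was 3.04, 2.99 and 3.01 in HFD, against 3.40, 3.55 and 5.04 in chow, where chow replicate 3 stood apart. For the adenine nucleotide translocases, Slc25a4 minus Slc25a5 was 1.45, 1.09 and 1.07 in HFD, against 1.39, 1.07 and 2.14 in chow, and the diets overlapped. They also overlapped for Slc25a33 minus Slc25a36, Slc25a14 minus Slc25a30 and Slc25a16 minus Slc25a42. These differed by -0.07, 0.35 and -0.60 between diets, in that order.

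**Figure D3:**
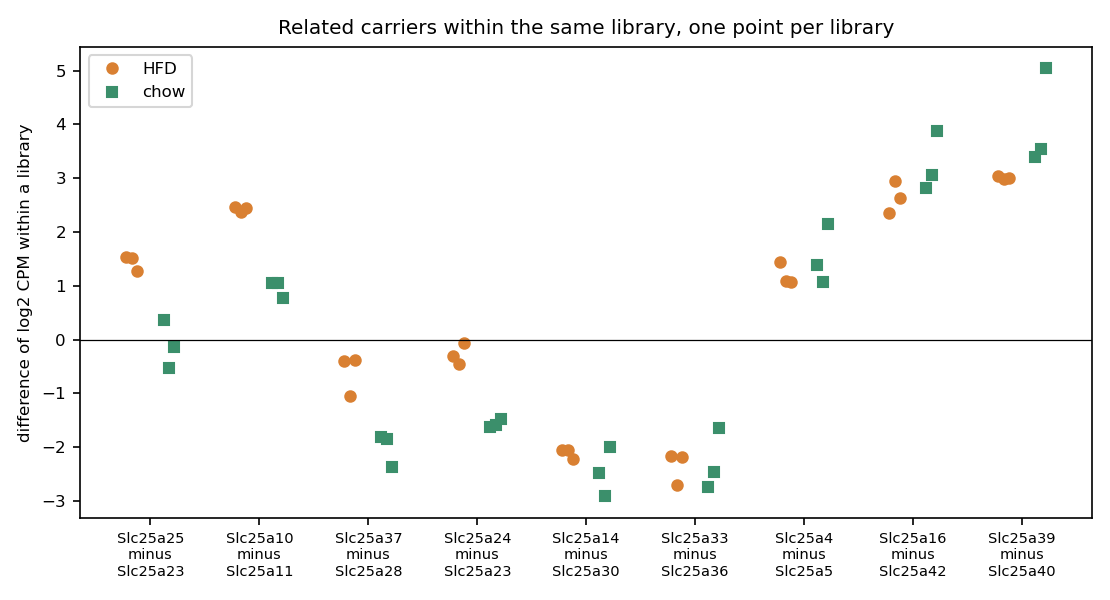
Difference of log2 CPM between related carriers within the same library, a point per library, HFD (circles) left of chow (squares). The diets lie apart for Slc25a10 and Slc25a11, for Slc25a23 against its relatives, for the mitoferrins and for Slc25a39 and Slc25a40. They overlap for Slc25a4 and Slc25a5, Slc25a33 and Slc25a36, Slc25a14 and Slc25a30, and Slc25a16 and Slc25a42.

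On GRCm38.p6, members that lie on chromosome 11 did not share a direction. Slc25a10 (120491837 to 120501161) rose and Slc25a11 (70644019 to 70647531) fell, whereas Slc25a39 and Slc25a35 did not pass. Slc25a23 lies on chromosome 17 at 57043711 to 57059909 and Slc25a37 on chromosome 14 at 69241848 to 69285544. Whole gene spans of 10 members overlap another annotated gene, for 2 of them a listed gene (Slc25a11 and Slc25a26).

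Of 4 tested proteins of the family with other names, 1, Ucp2, rose (3 with the identity gene scaling). Ucp2, an uncoupling protein also abundant in macrophages, stood at 103, 122 and 159 CPM in HFD, against 48.2, 34.5 and 24.9 CPM in chow. Ucp2 differed by 1.83 ± 0.24 (log2 fold change ± SE, adjusted p 0.00047 from limma). The part of macrophages in it was not tested. Ucp3, Mtch1 and Mtch2 did not pass, with log2 fold changes of 0.47, 0.05 and -0.17.

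Proteins that handle the cargo or the carriers were counted by function, to be read against 19.1% higher and 16.0% lower over all tested genes. The total covers 11 lists, each gene counted in 1 list only, and includes the 4 family proteins with other names and so Ucp2. In it 11 of 92 genes rose and 31 fell, with a median log2 fold change of -0.25. With the identity gene scaling 21 were higher and 7 lower, beside 31.3% higher and 3.67% lower over all tested genes under that scaling. Of 14 genes that import and insert carriers, Tomm20 rose (0.62) and Tomm7 fell (-0.78). Of 17 other inner membrane transporters, 3 rose and 3 fell. Sfxn1, a serine transporter, stood at 75.1, 81.0 and 75.1 CPM in HFD, against 311, 258 and 413 CPM in chow, a log2 fold change of -2.05 (SE 0.17, limma adjusted p 4.41e-05). Its relative Sfxn3 rose by 1.04, Slc8b1, a sodium-calcium exchanger, rose by 0.80, and Smdt1, a subunit of the calcium uniporter, fell by 0.59 on the log2 scale. The pyruvate carrier subunit gene Mpc2 had a log2 fold change of 0.38 (limma adjusted p 0.0731). Of the outer membrane channels, Vdac1 had one of -0.09 (limma adjusted p 0.696), and Vdac2 and Vdac3 did not pass either.

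The enzymes on either side of the carriers were counted in the same way, and their counts moved with the scaling. Of 7 enzymes of mitochondrial glutamate, the cargo of Slc25a22, 5 fell and 2 rose (2 and 2 with the identity gene scaling). Gpt2, an alanine transaminase, fell by 1.42 and Prodh, proline dehydrogenase, by 1.39 on the log2 scale, while Pycr1, of proline synthesis, rose by 1.38. Of 9 users of glutathione and thiamine pyrophosphate, 8 fell, among them Gpx1 (-1.20) and Gsr (-0.97). Their median of -0.63 was -0.23 with the identity gene scaling, under which 3 fell.

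Of 15 genes of iron-sulfur clusters and heme, the use of the iron that mitoferrins deliver, 6 fell and 1, Isca2, rose (1 and 3 with the identity gene scaling). Alad fell by 1.13 on the log2 scale. Of 6 genes of ornithine and arginine, 3 fell, with Oat at -0.77 and Asl at -0.73, and 2 rose. Of those that rose, Aldh18a1 had a log2 fold change of 1.06, and Ass1 stood at 34.1, 59.3 and 69.1 CPM in HFD, against 0.310, 0.255 and 0.00867 CPM in chow, the last being the lowest value of the table. Of 6 genes of citrate formation and use, 3 fell, with Aco1 at -0.81 and Pcx, pyruvate carboxylase, at -0.74. The list holds genes that form citrate as well as genes that use it, so its count does not describe citrate export. With the identity gene scaling the median of this list was 0.05, against -0.36 as deposited, and that of the ornithine and arginine list was -0.17, against -0.57. The calls of the 3 genes that fell in each list were lost under that scaling. Of 4 enzymes of the malate-aspartate shuttle, Mdh2 fell (-0.73), and of 7 genes of mitochondrial one-carbon and glycine metabolism, Mthfd1l rose (1.35) and Mtfmt fell (-0.52). With the identity gene scaling, all calls were higher among the import genes (3), the shuttle enzymes (1) and the one-carbon genes (2), and of the other inner membrane transporters 5 were higher and 1 was lower.

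**Figure D4:**
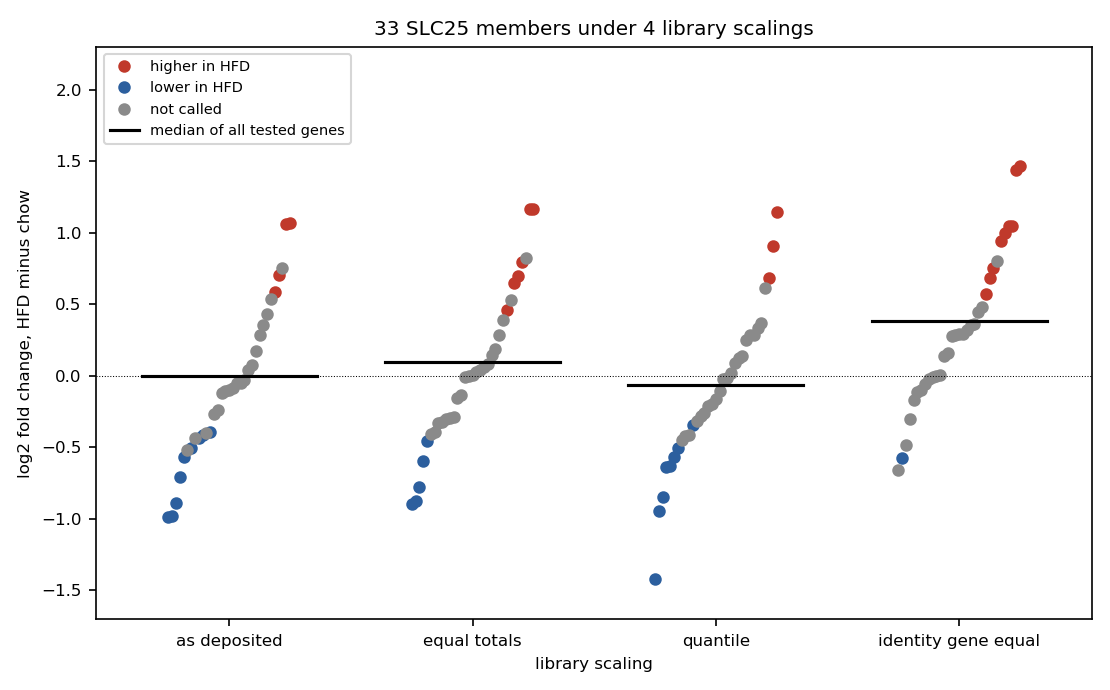
Log2 fold change (HFD minus chow) of the 33 SLC25 members under 4 library scalings, with the median of all tested genes as a black line; red and blue mark called members. The members shift with the line. As deposited 9 are lower (27.3%, beside 16.0% of all tested genes), against 1 with the adipocyte identity gene set equal (3.03%, beside 3.67%).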

How the data were processed

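Ribosome-bound RNA was measured in 6 of the 13 samples of the series; the chromatin samples were not analysed here. Per the submitters' processing notes, HISAT2, Picard, featureCounts and edgeR were named beside tools for chromatin data, and mm10 as the genome; what each did, and its version, is not stated there. The authors deposited log2 CPM per gene, to 2 decimals with a lowest value of -6.85. The base of the logarithm was inferred from the recovered whole reads; no source used here states the gene filter or the prior count.

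Each value was turned back into CPM, and log2(CPM + 1) was tested for the 11643 of 11761 genes averaging 1 CPM or more. The test was limma 3.58.1 under R 4.3.3 (moderated, trended variance, two-sided, no block, threshold 0.05, Benjamini-Hochberg adjustment). A fold change on this scale understates the change of low genes. Library sizes came from the steps of low values (under 20 reads), all whole within 0.1 of a read. Unmapped columns numbered 0. The fit was also run on simulated data with known changes and known library sizes, so that run does not test the library scaling. Members and lists were chosen with earlier results of these data known. Values of each library are given for called members and for those averaging 50 CPM or more, and for some others chosen after their values were seen; from each list at most the 2 highest and 2 lowest called genes are named, beside a few fixed names. Of the lists of other cells, T and B cell markers had 1 tested gene, which did not pass, brown fat markers had 5, of which 2 rose and 1 fell, and the germ cell list had 0 tested genes. Protein sequences planned for display were not used here. The counts over members and lists cover every member, but 1 member and 1 listed enzyme are not reported here by name.

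The alternatives were the deposited log2 values, a pseudocount of 0.1, no filter, a filter of 5 CPM, equal totals, quantile normalization, scaling to the median adipocyte identity gene, voom weights on recovered reads, array weights, a replicate block, leaving out each library, and an adjusted p of 0.01. Depth limits the low members: 3 reads are worth 0.404 CPM in the shallowest library (chow replicate 3) but 0.0761 to 0.129 CPM elsewhere, counting error only.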

Additional observations from a re-analysis of the deposited data

How the results depend on the processing

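Whether the same-numbered libraries form pairs was not settled. Their deviations from the diet means correlated at 0.43, 0.23 and 0.086 over genes, against -0.39 to 0.15 for libraries of different number. Chow replicate 3 correlated best with HFD replicate 2 (0.15). With a replicate block 6 members were higher and 10 lower (18.2% and 30.3%, beside 22.3% and 19.3% of all tested genes). In that fit 2594 genes were higher and 2245 lower. Over all genes, scaling to the median adipocyte identity gene gave 3648 higher and 427 lower genes, and leaving out a library gave 1688 to 2101 higher and 1162 to 1740 lower genes, with 1162 without HFD replicate 3. Among members, that scaling gave 9 higher and 1 lower, and an adjusted p of 0.01 left 2 higher and 4 lower. Equal totals gave 5 lower (15.2%, beside 11.45% of all tested genes). Leaving out a library gave 3 to 6 higher members (9.09% to 18.2%, beside 14.5% to 18.05% of all tested genes). It gave 5 to 9 lower members (15.2% to 27.3%, beside 9.98% to 14.9%). Among the related lists, the identity gene scaling gave 21 higher and 7 lower genes.

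Of the 33 members 21 kept their sign in every alternative fit that tested them, which was 15 fits for Slc25a12 and 16 for the rest. The others were Slc25a33, Slc25a42, Slc25a14, Slc25a35 and Slc25a28, none called lower or higher as deposited, and the 7 below. With the identity gene scaling Slc25a46 stood at 0.358, Slc25a5 at 0.323, Slc25a1 at 0.292, Slc25a51 at 0.143 and Slc25a11 at 0.00985. With equal totals Slc25a46 stood at 0.0609 and Slc25a5 at 0.0273, with quantile normalization Slc25a46 at 0.0204, and with array weights Slc25a46 at 0.0486 and Slc25a1 at 0.132. Leaving out a library gave -0.0477 to 0.209 for Slc25a17, -0.0692 to 0.138 for Slc25a36, -0.149 to 0.0795 for Slc25a46, -0.299 to 0.122 for Slc25a5 and -0.264 to 0.0383 for Slc25a1. The cause of these changes was not tested. Of the 13 called members, 12 kept their sign in all 16 alternative fits; the exception was Slc25a11.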

Other observations

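Chow replicate 3 was the highest of the chow libraries for 18 of 33 members and the lowest for 12. The SD of log2 CPM over the members had a median of 0.166 in HFD and 0.22 in chow, beside 0.173 in HFD and 0.234 in chow over all tested genes. The widest chow spread was that of Slc25a12 (0.877), and the widest HFD spread that of Slc25a53 (0.344). The summed level of the 9 members that fell was 869, 912 and 862 CPM in HFD, against 1175, 1212 and 1480 CPM in chow. This sum describes members chosen by this same contrast and carries no test.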
